A study of Mus musculus with 6 samples.

Results

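The SR proteins and the heterogeneous nuclear ribonucleoproteins (hnRNPs) are the general RNA-binding regulators of exon choice, and 36 of their genes were followed here among the 55331 genes of the series. They comprise 13 genes of the SR family with the related TRA2 genes, and 23 genes of hnRNPs including the poly(C)-binding proteins. The genes were chosen by name, with earlier results of these data known. Their messenger RNA was measured in mouse small intestinal crypt cells, and their splicing events were kept where the 6 libraries averaged 20 reads or more, which gave 325 of the 53918 events kept by that minimum in the whole series. Only 3 events of these genes fell under that minimum: the 2 nearest to it averaged 17.8 reads, for an exon of Hnrnpa1, and 15.3 reads, for an exon of Hnrnpk, and the lowest event kept averaged 30 reads, in Syncrip.

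SR proteins carry a domain rich in arginine and serine and usually promote the use of the exons they bind, while hnRNPs often repress exons, and the balance of both helps to set which exons a cell uses. Many of these genes regulate themselves and each other: their pre-mRNAs hold exons, called poison exons, whose inclusion brings in an early stop codon and sends the transcript to nonsense-mediated decay. PTBP1, an hnRNP that binds pyrimidine-rich RNA and mostly represses exons, was deleted in this study, and the levels of its fellow regulators are compared with and without the deletion, and their splicing between the library sets of the deposited tables.

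The series holds 3 WT and 3 PTBP1_KO libraries of polyadenylated RNA from C57BL/6 mice aged 60 days. All mice carried floxed Ptbp1 alleles (Ptbp1f/f) and received tamoxifen at 100 mg/kg on 2 consecutive days, and crypt cells were collected 20 h after injection 2. WT mice had no Cre, and PTBP1_KO mice also carried 1 copy of Vil-creER, a tamoxifen-inducible Cre recombinase under the villin promoter, which is active in the intestinal epithelium and not in other cells of the gut wall. Gene levels come as 1 FPKM value (fragments per kilobase of transcript, scaled to library size) per genotype, with no value per library, no replicate spread and unknown depth. Splicing comes as reads per library in a first and a second set of 3 libraries, and the tables leave the genotype of each set unnamed, so differences in splicing are given by set and never by genotype. The 6 libraries held 32226951 to 39774266 reads summed over the skipped exon events, where a read can count in more than 1 event.

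Ptbp1 itself was listed at 230.0 FPKM in WT and 122.8 FPKM in PTBP1_KO, a log2 fold change of -0.91 with an adjusted p (q) of 0.0125 from Cuffdiff in the authors' deposited table. Markers matched the labelled tissue: 7 epithelial genes summed to 4059 FPKM in WT and 4434 FPKM in PTBP1_KO, and 5 crypt genes to 2220 and 3164 FPKM. Markers of other cells were low, with 7 immune genes summing to 31.5 and 49.1 FPKM, 7 stromal and muscle genes to 6.53 and 7.41 FPKM, and 3 endothelial genes to 0.600 and 0.657 FPKM. None of these markers was at 0, 6 of the 7 stromal and muscle genes and all 3 endothelial genes were below 1 FPKM in both genotypes, and 1 immune gene had a q below 0.05. In such bulk samples fewer cells of a type and less RNA per cell cannot be told apart. The part of the crypt and immune marker differences in the values that follow was not tested.

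The levels of SR protein and hnRNP genes were listed at nearly the same value in both genotypes. None of the 35 tested members had a q below 0.05 in the authors' deposited table, where 0.537% of all 15460 tested genes did, and none had an unadjusted p below 0.05, where 4.35% of all tested genes did. The smallest unadjusted p among the members was 0.0693 and every member's q was 0.999805. Of the 35, 17 were listed higher and 18 lower in PTBP1_KO, and 31 lay within 0.15 of 0 in log2 fold change. The median log2((PTBP1_KO + 1)/(WT + 1)) of the members was -0.01, beside 0.02 for all tested genes. The middle 50% of the members ran from -0.08 to 0.06, and that of all tested genes from -0.08 to 0.11. These genes are also abundant: 22 members had at least 100 FPKM in WT, a level that 6.04% of all tested genes reached. Among the 934 tested genes at that level, the median absolute log2 fold change was 0.10. It was 0.07 for all 35 tested members, not only the 22 at that level.

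**Figure D1:**
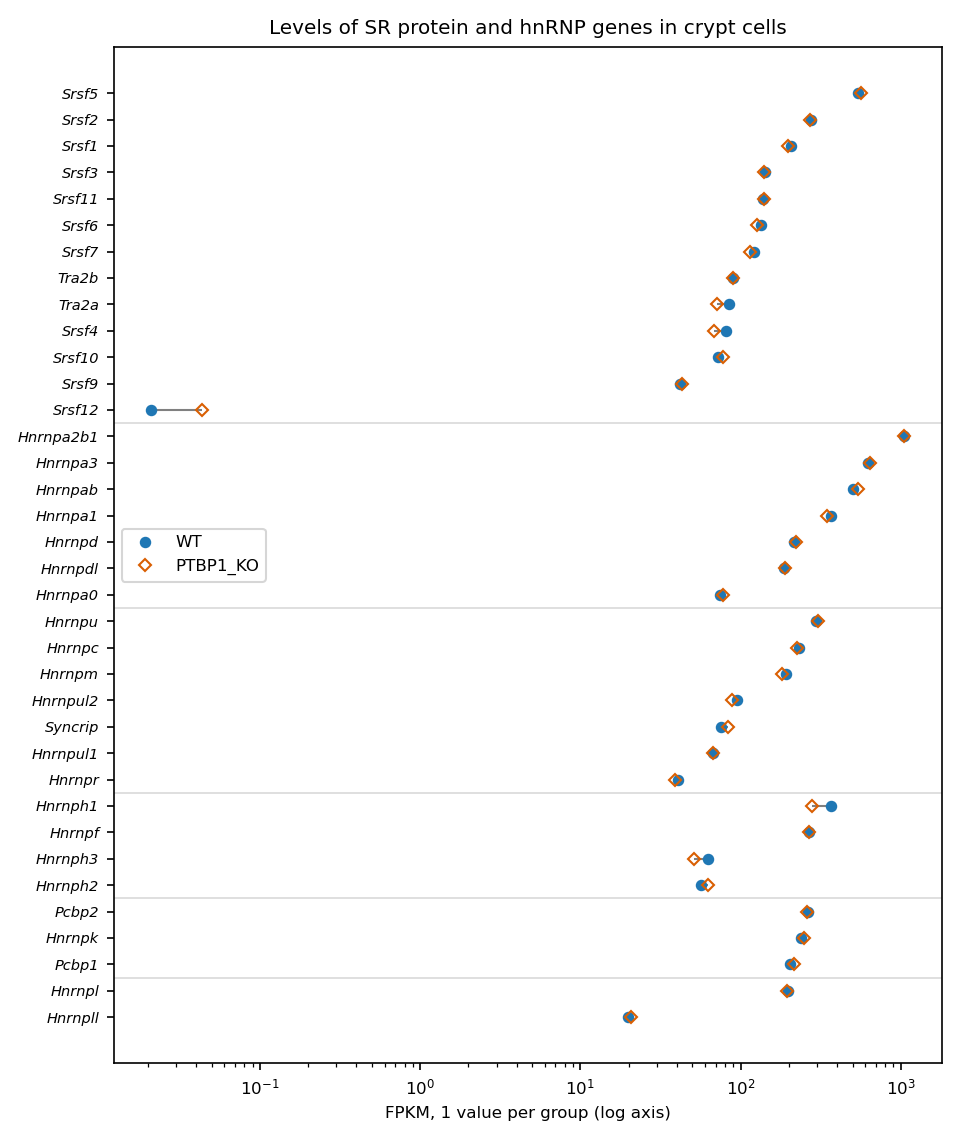
FPKM of the 36 genes on a log axis, with 1 authors' value per genotype and no error available, grouped by family and ordered by level within a family. Filled circles (WT) and open diamonds (PTBP1_KO) nearly coincide for most genes, the widest gaps among tested genes are those of Hnrnph1, Hnrnph3, Tra2a and Srsf4, and Srsf12 lies far below the rest and was not tested.

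Of the 12 tested SR and TRA2 genes, 4 were listed higher and 8 lower in PTBP1_KO, with a median log2 ratio of -0.03. Srsf5 had the highest level of this family, with 544 FPKM in WT and 565 FPKM in PTBP1_KO, followed by Srsf2, a classical exon-enhancer binding protein, with 277 and 270 FPKM, and Srsf1, its founding member, with 205 and 197 FPKM. Srsf9 was the lowest tested SR gene, with 41.7 FPKM in WT and 43.4 FPKM in PTBP1_KO. The larger downward values belonged to Tra2a, which encodes a splicing activator that binds purine-rich exon sequences, and to Srsf4. Tra2a was listed at 85.3 FPKM in WT and 70.8 FPKM in PTBP1_KO, a log2 fold change of -0.27 with an unadjusted p of 0.0708 from Cuffdiff. Srsf4 was listed at 80.7 and 68.6 FPKM, a log2 fold change of -0.23 with an unadjusted p of 0.138 from Cuffdiff. Srsf10, which represses splicing when dephosphorylated, was listed at 72.7 and 78.2 FPKM, a log2 fold change of 0.11. Srsf12, which was not tested by the authors, was listed at 0.0210 and 0.0438 FPKM, so the family was represented by its other 12 genes in these cells.

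The 2 members with the highest levels belonged to the hnRNP A, B and D genes. Hnrnpa2b1, whose protein packages nascent transcripts together with hnRNP A1, was listed at 1053 FPKM in WT and 1044 FPKM in PTBP1_KO, and Hnrnpa3, its close relative, at 623 and 645 FPKM. Hnrnpab had 503 and 539 FPKM, a log2 fold change of 0.10, and Hnrnpa1, a widely acting exon repressor, had 368 and 346 FPKM, a log2 fold change of -0.09. Of the 7 genes of this group 5 were listed higher and 2 lower in PTBP1_KO, with a median log2 ratio of 0.05.

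The 4 genes of the hnRNP F and H group, which bind runs of guanines, held both the largest downward and the largest upward value among tested members. Hnrnph1 was listed at 366 FPKM in WT and 278 FPKM in PTBP1_KO, a log2 fold change of -0.40 with an unadjusted p of 0.0693 from Cuffdiff. Hnrnph3 was listed at 62.6 and 51.1 FPKM, a log2 fold change of -0.29 with an unadjusted p of 0.125 from Cuffdiff. Hnrnph2, an X-linked gene of the group, was listed at 56.9 and 62.5 FPKM, a log2 fold change of 0.14 with an unadjusted p of 0.364 from Cuffdiff. Hnrnpf stood at 266 and 269 FPKM. None of these values passed the test, and no replicate spread was available to set them against.

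The remaining hnRNPs showed small differences. In the hnRNP K and PCBP group, whose KH domains bind cytosine-rich RNA, 2 of 3 genes were listed higher, with a median log2 ratio of 0.07: Hnrnpk had 239 FPKM in WT against 250 in PTBP1_KO, Pcbp1 had 203 and 215 FPKM, and Pcbp2 had 265 and 260 FPKM. Hnrnpl, which binds CA-rich RNA and belongs to the same protein superfamily as PTBP1, had 198 and 196 FPKM, and its paralogue Hnrnpll had 19.8 and 20.7 FPKM, the lowest level of a tested member. Among the 7 genes of the C, M, R, Q and U group, 3 were listed higher and 4 lower, with a median log2 ratio of -0.05. Syncrip (hnRNP Q) had the largest upward value of that group, with 76.0 FPKM in WT against 83.1 in PTBP1_KO, a log2 fold change of 0.13 and an unadjusted p of 0.498 from Cuffdiff.

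The summed reads of a gene's skipped exon events gave a second view of its level in each library, although without genotypes. For the 33 members with events, scaled to 1000000 reads of the skipped exon table (RPM), the highest library had 1.18 to 1.68 times the RPM of the lowest, with a median of 1.38, beside 1.47 over all 8922 genes with such events. Library 1 of the first set was the lowest for 30 of the 33 members and for 39.2% of all genes. The sets did not overlap for 4 members, Srsf4, Hnrnph2, Hnrnph3 and Hnrnpul2, where 10.8% of all genes had sets that did not overlap. Hnrnph3, for example, had 199, 214 and 210 RPM in the first set and 247, 280 and 277 in the second.

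Most splicing events of these genes were listed with nearly the same inclusion level in both sets. An inclusion level is the share, among the transcripts that can be counted for an event, that hold the region in question. It is estimated from reads and the lengths they can fall on. An event is called here when the authors' false discovery rate (FDR) is below 0.05 and their inclusion level difference, first minus second set, is at least 0.1 in size. By that rule 3 of 325 member events were called, or 0.923%, beside 1.56% of all events. With the FDR alone 9 member events passed, or 2.77%, beside 3.76% of all events, and 26 had an unadjusted p below 0.05, or 8%, beside 10.3%. The absolute difference was under 0.05 in 316 of the 325 events, with a median of 0.003, beside 0.008 over all events. The member events were deeply covered, with a median of 2252 reads per library beside 262 for all events.

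**Figure D2:**
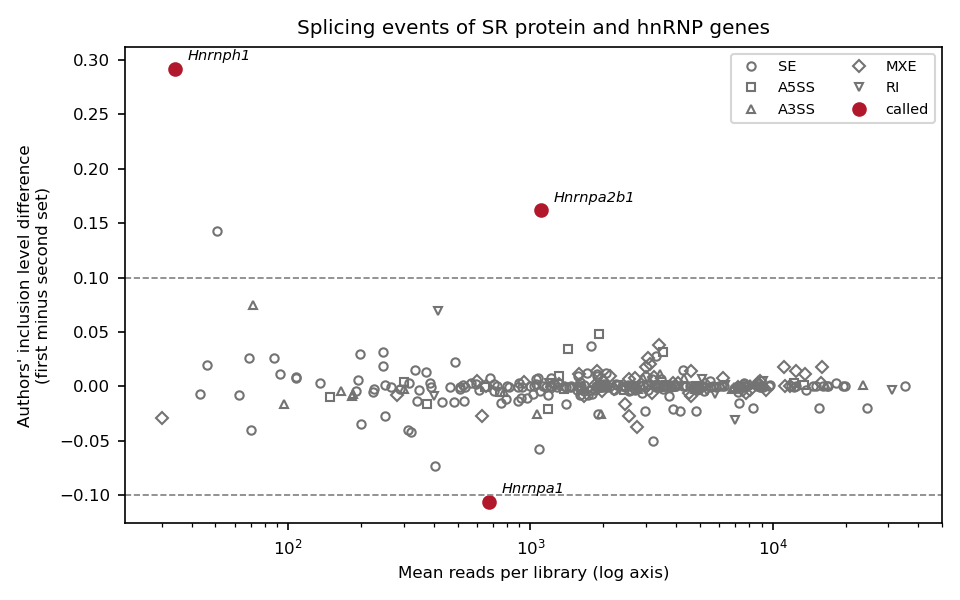
Authors' inclusion level difference (first minus second set) of the 325 member events against the mean reads per library (log axis), with a marker for each event type and dashed lines at the 0.1 minimum. Most events lie close to 0 at every depth, and the 3 called events, filled red circles, belong to Hnrnph1, Hnrnpa2b1 and Hnrnpa1.

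All 3 called events were skipped exons, and all lay in hnRNP genes. Of 217 skipped exon events 3 were called, or 1.38%, beside 1.68% of all skipped exon events. None was called among 19 alternative 5′ splice site events (1.57% of all), 26 alternative 3′ splice site events (1.1% of all), 51 pairs of mutually exclusive exons (1.02% of all) or 12 retained introns (2.06% of all). The 95 events of SR and TRA2 genes had a lowest FDR of 0.237 and 6 with an unadjusted p below 0.05, while the 230 events of hnRNP genes had 9 with an FDR below 0.05; whether the families differ was not tested. By gene, 3 of the 33 members with an event had a called one, or 9.09%, beside 6.61% of all genes with an event. Hnrnpa0 and Pcbp1, each with 1 exon in the annotation, had no event, and neither had Srsf12.

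The called event of Hnrnpa2b1 (ENSMUSG00000004980.16) concerned a 136 nt exon at chr6:51461920-51462055 on the minus strand of GRCm38 (mm10), which lies after the stop codon, in a protein-coding transcript and in transcripts annotated for decay. Its inclusion level was 68.2, 68.5 and 69.1% in the first set and 45.5, 56.8 and 55.0% in the second. All 3 libraries of the first set were above all 3 of the second, in which library 1 was the lowest. The authors' deposited table gives a difference of 0.162 with an FDR of 2.4e-06, with 1108 reads per library on average. A 120 nt coding exon of Hnrnpa2b1 had 24455 reads per library, so this level is not a share of all transcripts of the gene. The counting error of a single library reached at most 7.66 points between the ends of its 95% binomial (Clopper-Pearson) interval. Intervals of this kind cover counting error only, since reads of amplified libraries are not independent molecules.

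The called event of Hnrnph1 (ENSMUSG00000007850.16) concerned a 127 nt exon of the 5′ untranslated region at chr11:50377314-50377440 on the plus strand. Inclusion was 94.3, 80.5 and 92.4% in the first set and 61.5, 55.7 and 62.3% in the second. The sets did not overlap, and the skipping form had 1, 4 and 1 reads in the first set and 10, 11 and 9 reads in the second. The authors' deposited table gives a difference of 0.292 with an FDR of 0.00168, the largest difference among the 325 member events, but with only 34.2 reads per library on average. The widest 95% binomial interval of a library spanned 36.8 points, and the event is no longer called when a mean of 50 reads is required. A 60 nt coding exon of Hnrnph1 had 6296 reads per library, so this level too is not a share of all transcripts of the gene.

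**Figure D3:**
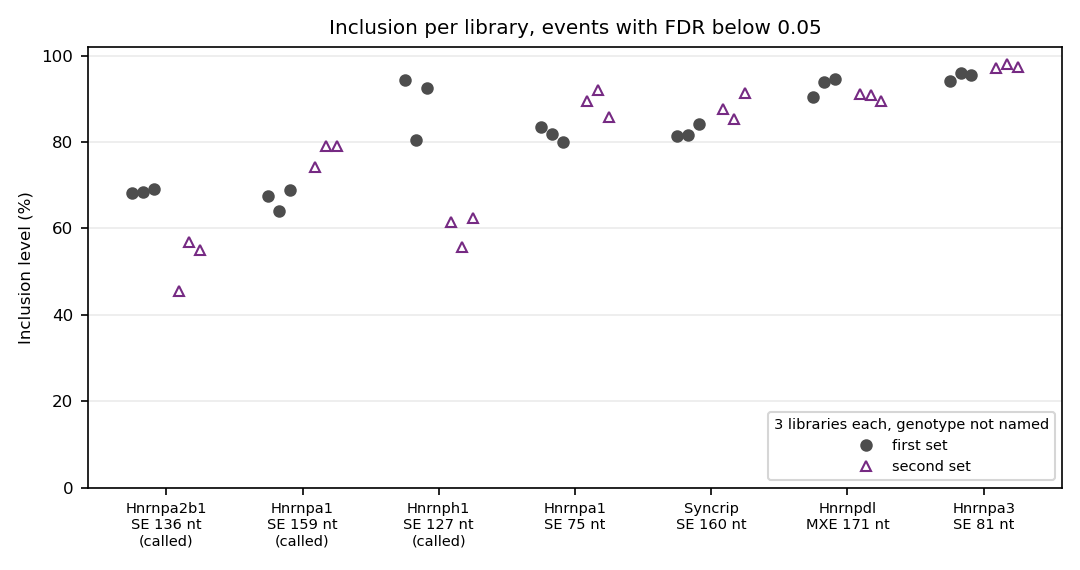
Inclusion level (percent) in each of the 6 libraries for the events with an FDR below 0.05, 1 per gene beside the called ones, with filled circles for the first set and open triangles for the second. The sets do not overlap in 6 of the 7 events and overlap in the mutually exclusive exon of Hnrnpdl.

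Hnrnpa1 (ENSMUSG00000046434.16) held 4 of the 9 events with an FDR below 0.05, and they fell on exons 6, 7 and 8 of its transcript, which encode part of the glycine-rich tail of the protein, the region known for its part in protein-protein contacts and phase separation. They are 93, 75 and 159 nt long, each a multiple of 3, so that leaving out 1 or more of them keeps the reading frame. Exon 6 (chr15:103242380-103242472, plus strand) is shown with exon 7 of the paralogue Hnrnpa3 (81 nt, chr2:75662845-75662925, plus strand), the exon with the lowest FDR of all member events, as examples of the exons at issue. Both come from GENCODE M21 transcripts on GRCm38 (mm10), written 5′ to 3′.
Hnrnpa1 exon 6: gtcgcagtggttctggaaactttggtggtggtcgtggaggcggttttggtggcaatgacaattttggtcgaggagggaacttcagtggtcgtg
Hnrnpa3 exon 7: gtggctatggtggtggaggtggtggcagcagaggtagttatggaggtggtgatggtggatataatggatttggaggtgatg

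The called Hnrnpa1 event was exon 8 measured between exons 5 and 9. Its inclusion level was 67.5, 64.0 and 68.9% in the first set and 74.2, 79.0 and 79.0% in the second. The sets did not overlap, with a difference of -0.106 and an FDR of 0.000448 in the authors' deposited table at 675 reads per library. Exon 7 measured between exons 5 and 8 moved the same way: 83.6, 81.8 and 80.1% in the first set and 89.5, 92.0 and 85.9% in the second, a difference of -0.073 with an FDR of 0.00482. The other 2 events, exon 6 with a difference of -0.015 and exon 7 measured between exons 5 and 9 with a difference of -0.023, had FDRs of 2.84e-06 and 2.86e-06 in the same table. All 4 events had lower inclusion in every library of the first set than in any of the second.

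These 4 events are not independent, because 3 of them count the same skipping reads, those that join exon 5 directly to exon 9 and leave out exons 6, 7 and 8 together. That junction had 91, 181 and 143 reads in the first set and 76, 76 and 76 in the second, so 415 reads against 228. The values were 2.77, 5.11 and 3.60 RPM in the first set and 2.29, 2.36 and 2.04 in the second, and the sets did not overlap on either scale. The junction from exon 5 to exon 8 had 33, 64 and 63 reads in the first set and 23, 24 and 40 in the second, and its sets overlapped in read number. Neither junction is part of an annotated Hnrnpa1 transcript in GENCODE M21.

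**Figure D4:**
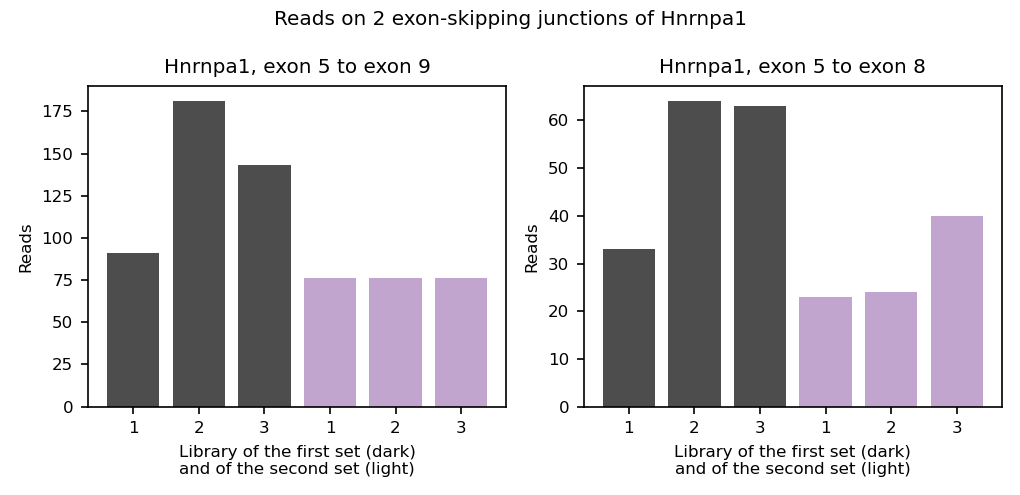
Reads on the junctions from exon 5 to exon 9 (left) and from exon 5 to exon 8 (right) of Hnrnpa1, 1 bar per library, dark for the first set and light for the second. On the left every dark bar, from 91 to 181 reads, is above the 76 reads of each light bar, and on the right the sets overlap.

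Exon 8 of Hnrnpa1 measured between exons 7 and 9, the skipped exon event of this exon with most reads, was listed at nearly the same level in both sets. This event, described after its values were seen, had 7619 reads per library and inclusion levels of 7.47, 8.07 and 7.97% in the first set and 7.10, 7.78 and 7.81% in the second, which overlapped. Its difference was 0.003 with an FDR of 1 in the authors' deposited table. The inclusion reads of the called event numbered 398, 677 and 666 in the first set and 459, 602 and 603 in the second. Such reads can lie anywhere on exon 8 or on its join to exon 9, whether or not exons 6 and 7 are present, so the called inclusion level is not a share of all Hnrnpa1 transcripts.

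Hnrnpa3 (ENSMUSG00000059005.13) had the lowest FDR of all member events, 4.0e-07 in the authors' deposited table, on exon 7, the exon printed above. Its inclusion was 94.1, 96.0 and 95.4% in the first set and 97.1, 98.1 and 97.3% in the second, at 4811 reads per library. The sets did not overlap, yet the difference was -0.023, under the minimum for a call, and as in Hnrnpa1 it is the first set that skipped more. The 4-base word TCTT, a known type of PTBP1 binding element, was searched on the transcribed strand of 5 exons: this one, exon 6 of Hnrnpa1, the coding part of Syncrip exon 2, and the exons of Hnrnpa2b1 (36 nt) and Hnrnpd (57 nt) printed further on. It was found 0 times in each, while 39.1% of all 31164 skipped exons held it, and from 13.6 to 45.8% of those within 10 nt of the same lengths. No count is given for the called exons or for introns, where PTBP1 often binds, and a missing match says only that these letters are not in these exons. Other exons of the members do hold the word. It occurs in the stretches of the Srsf3, Srsf7, Hnrnpl and Hnrnpll decay exons printed further on, and not in those of Tra2b and Srsf11.

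Syncrip (ENSMUSG00000032423.12), which encodes hnRNP Q, an mRNA-binding protein with roles in translation and mRNA stability, had an event with an FDR below 0.05 on its exon 2 (160 nt, chr9:88480606-88480765, minus strand), the exon that holds the start codon. Inclusion was 81.3, 81.6 and 84.2% in the first set and 87.7, 85.3 and 91.5% in the second, which did not overlap, with a difference of -0.058 and an FDR of 0.00640 in the authors' deposited table. The coding part of this exon, at chr9:88480606-88480753, is printed 5′ to 3′ from the GENCODE M21 transcript with the start codon in capitals, since a transcript without it lacks this start.
Syncrip exon 2, coding part: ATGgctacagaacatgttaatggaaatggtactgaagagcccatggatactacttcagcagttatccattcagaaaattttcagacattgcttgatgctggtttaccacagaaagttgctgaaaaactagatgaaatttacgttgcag

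The last event with an FDR below 0.05 was in Hnrnpdl, a relative of Hnrnpd: a 171 nt coding exon at chr5:100036481-100036651 (minus strand), listed as mutually exclusive with a 105 nt exon beyond the stop codon at chr5:100035635-100035739. On the minus strand the inclusion reads of such a pair are those of the exon listed later, here the 171 nt exon. Its inclusion was 90.5, 93.9 and 94.7% in the first set and 91.0, 90.9 and 89.4% in the second, which overlapped. The authors' deposited table gives a difference of 0.026 and an FDR of 0.0148. Measured as a simple skipped exon, the 171 nt exon had 98.8 to 99.1% over the libraries, with a difference of -0.001. The level of the pair is thus not the share of transcripts that hold this exon. As a simple skipped exon the 105 nt exon had 69.7, 62.5 and 60.7% in the first set and 71.5, 63.2 and 63.0% in the second, which overlapped too, with a difference of -0.016 and an FDR of 1.

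The exons that tie these genes to nonsense-mediated decay were then examined, since their inclusion is the known route of self-regulation. In 14 of 25 genes with such exons or introns on the list, a skipped exon was present in decay transcripts of the annotation and in no protein-coding one. This rule, narrowed after the annotation was seen, leaves out exons that a protein-coding transcript also holds. The called 136 nt exon of Hnrnpa2b1, with a difference of 0.162, is such an exon. None of the 14 had an FDR below 0.05, where 3.79% of all skipped exon events did, and the lowest was 0.284, for Srsf4. The largest absolute difference was 0.027, and in none of the 14 did the sets fail to overlap, where 9.15% of all events had sets that did not overlap. In 10 of them the mean inclusion was between 4.63 and 65.1%, with absolute differences of at most 0.023, while a single exon's libraries spanned 3.68 to 15.3 points. In the other 4 exons, of Srsf4, Srsf5, Syncrip and Hnrnpu, inclusion was above 90%; there the level is relative to the flanking exons of the listed event and does not give the share of all transcripts of the gene.

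The 5′ ends of 6 of these exons are printed up to and including the stop codon, in capitals, to show how soon after the exon's start the frame closes. They are read 5′ to 3′ from decay transcripts of GENCODE M21 on GRCm38 (mm10), for the exons at chr17:29039454-29039909 (Srsf3, plus), chr17:80204622-80205081 (Srsf7, minus), chr16:22258986-22259261 (Tra2b, minus), chr7:28817335-28817404 (Hnrnpl, plus), chr17:80044940-80045022 (Hnrnpll, minus) and chr3:158023243-158023359 (Srsf11, minus). The stop codon ends at base 34, 28, 81, 59, 47 and 50 of the exon, in that order. Among the exons not printed it ends later in those of Srsf6 and Tra2a, at base 152 and 144. In those of Srsf5 and Hnrnpu it ends at base 15 and 33.
Srsf3 456 nt exon: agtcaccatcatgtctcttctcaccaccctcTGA
Srsf7 460 nt exon: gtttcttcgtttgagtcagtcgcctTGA
Tra2b 276 nt exon: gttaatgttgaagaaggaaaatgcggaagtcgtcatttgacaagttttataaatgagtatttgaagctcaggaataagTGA
Hnrnpl 70 nt exon: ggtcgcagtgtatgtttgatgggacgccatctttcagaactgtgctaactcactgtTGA
Hnrnpll 83 nt exon: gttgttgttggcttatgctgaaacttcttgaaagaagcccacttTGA
Srsf11 117 nt exon: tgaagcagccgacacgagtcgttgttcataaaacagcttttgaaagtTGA

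The long poison exons of Srsf3, Srsf7 and Srsf6 were used at intermediate levels. That of Srsf3, the smallest SR protein, had 21.5, 23.2 and 23.6% in the first set and 25.3, 18.4 and 20.2% in the second. That of Srsf7, its close relative, had 48.2, 44.5 and 43.7% and then 52.1, 45.0 and 46.2%. In both genes the second set held the highest library, and the sets overlapped. The 268 nt exon of Srsf6 had 31.0, 27.3 and 26.8% in the first set and 29.1, 24.4 and 28.4% in the second.

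The poison exon of Tra2a had the widest spread between libraries among the 14. This 306 nt exon had 60.3, 55.4 and 63.9% in the first set and 64.9, 50.9 and 66.1% in the second, a range of 15.3 points with a difference of -0.008. The 276 nt exon of Tra2b, whose inclusion is known to be promoted by its own protein, had 15.5, 19.3 and 24.6% and then 22.0, 15.6 and 19.4%. The sets overlapped for both exons.

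The exons of the hnRNP L genes are of interest because hnRNP L is known to promote the poison exons of its own gene and of Hnrnpll. The 70 nt exon of Hnrnpl had 13.2, 9.29 and 9.28% in the first set and 12.6, 9.79 and 11.9% in the second. The 83 nt exon of Hnrnpll had 5.73, 9.37 and 7.01% and then 9.41, 6.25 and 7.11%, with 290 reads per library on average. The differences were -0.008 and -0.002, both with an FDR of 1 in the authors' deposited table. The 117 nt exon of Srsf11 had 40.4, 34.9 and 38.5% in the first set and 34.3, 32.8 and 40.0% in the second, with a difference of 0.022.

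**Figure D5:**
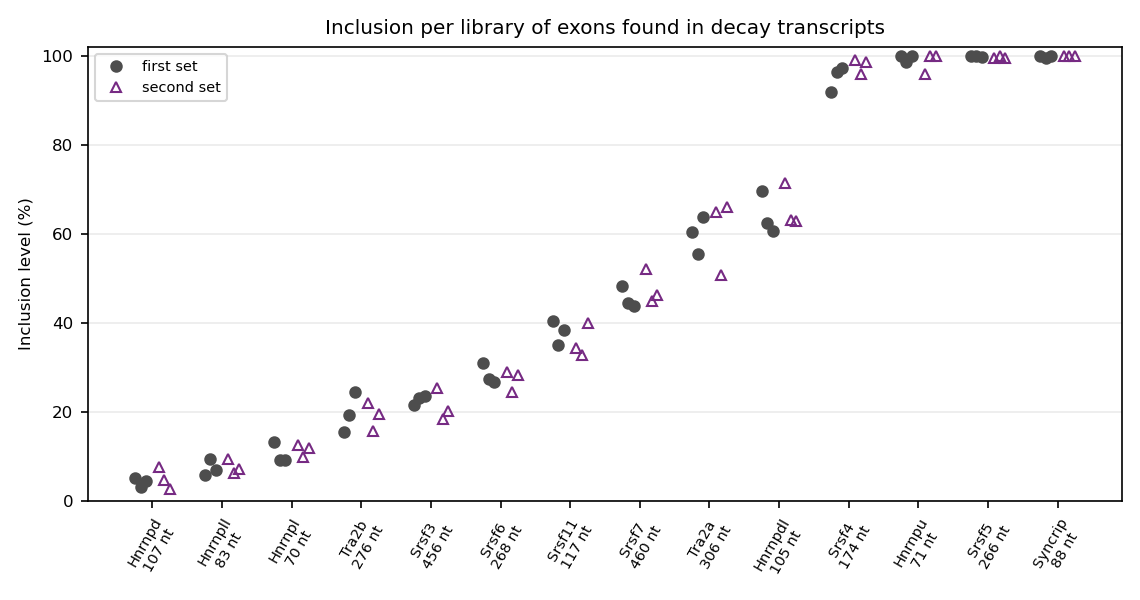
Inclusion level (percent) in each library of the 14 exons found in decay transcripts and in no protein-coding transcript, ordered by mean inclusion, with filled circles for the first set and open triangles for the second. The sets overlap for every exon, and the libraries of Tra2a spread the most, over 15.3 points.

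Retained introns, another known route of control in these genes, were listed 12 times in 9 members, and 9 of the 12 had a mean inclusion above 10%. The largest absolute difference was 0.069, in Tra2a, and the lowest FDR was 0.122, for an intron of Hnrnpk with a mean inclusion of 2.87%. The values given next were chosen after they were seen. The intron of Srsf5 had a mean inclusion of 56.1% with a range of 4.26 points over the libraries, and that of Srsf7, which spans its poison exon, had 58.6% with a range of 8.74 points. The introns of Srsf6 and Hnrnpl had 32.3% and 25.9%, with differences of 0.007 and -0.003. That of Srsf6 also spans the poison exon of its gene. In Srsf6 and Srsf7 the intron and the poison exon were counted against the same skipping reads, and reads on the exon can count for the intron. Their levels are therefore not independent of those of the poison exons. The intron of Tra2a, at 413 reads per library, had 40.8, 34.9 and 50.5% in the first set and 38.7, 34.7 and 32.1% in the second, which overlapped.

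Splice site choice was also similar between sets. The 19 alternative 5′ splice site events had absolute differences of at most 0.048, reached in Srsf7, and a lowest FDR of 0.237. The 26 alternative 3′ splice site events had at most 0.075 and a lowest FDR of 0.345. Of the 51 pairs of mutually exclusive exons 1 had an FDR below 0.05, that of Hnrnpdl above, where 2.46% of all such pairs did, and the largest absolute difference was 0.038. One further event reached a difference of 0.1 without passing the FDR: a 64 nt exon of Srsf11 with 31.2, 58.1 and 43.2% in the first set and 46.1, 25.7 and 17.7% in the second, at only 50.8 reads per library, with a difference of 0.143 and an FDR of 0.573 in the authors' deposited table.

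The coding exons that give these proteins their known isoforms were alternatively used in all 6 libraries, and none of those described here, chosen after their values were seen, had an FDR below 0.05. In Hnrnpa2b1 a 36 nt exon (chr6:51467391-51467426, minus strand) separates the longer B1 protein from A2, and in Hnrnpd a 57 nt exon (chr5:99976534-99976590, minus strand) is the exon 2 that some forms of the protein, AUF1, hold and others lack. Both are printed from GENCODE M21, as the exons by which the isoforms of these 2 abundant genes differ.
Hnrnpa2b1 36 nt exon: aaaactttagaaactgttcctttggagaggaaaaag
Hnrnpd 57 nt exon: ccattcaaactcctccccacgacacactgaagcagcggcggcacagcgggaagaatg

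The B1 exon had inclusion levels of 11.6, 11.8 and 12.1% in the first set and 12.3, 11.3 and 13.1% in the second, so the form without it prevailed in every library. The 57 nt exon of Hnrnpd had 66.6, 66.7 and 66.9% in the first set and 64.9, 63.6 and 63.2% in the second. Those sets did not overlap, with a difference of 0.028 and an FDR of 1 in the authors' deposited table. The 147 nt exon of Hnrnpd had a mean of 52.6%, the 141 nt exon of Hnrnpab 41.9% and the 120 nt exon of Hnrnpa2b1 62.9%, with differences of -0.021, -0.020 and -0.020 and overlapping sets. A 93 nt exon of Pcbp2 had 51.1, 50.9 and 50.2% in the first set and 56.3, 55.6 and 55.4% in the second. Its sets did not overlap and lay further apart than the libraries within either, with a difference of -0.050, but its FDR was 0.284. Over all 325 member events the sets did not overlap in 38, or 11.7%, beside 9.15% of all events.

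The 170 distinct skipped exons of the members fell into classes of very different listed use. Each exon entered with 1 event, the one whose flanking exon starts at the lowest coordinate, not the one with most reads. Exon 8 of Hnrnpa1 thus entered at 99.7%, though its event with most reads had a mean of 7.70%. The 128 coding exons had a median inclusion of 99.9% in the events entered, and 74 of them keep the reading frame. The 16 untranslated exons of protein-coding transcripts had a median of 38.9%, the 15 exons found in decay transcripts only and within their coding part 27.8%, and the 9 found in decay transcripts only and beyond the stop 6.89%. Of the 3 called exons 1 was coding, that of Hnrnpa1, and 2 were untranslated.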

How the data were processed

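RNA was sequenced from 3 WT and 3 PTBP1_KO libraries made with the TruSeq Stranded mRNA kit; groups follow the sample titles. The labels do not say that replicates are separate mice, so the authors' p-values measure only the spread between these samples. Per the submitters' processing notes, the tools were bcl2fastq 2.20, Trimmomatic 0.38, STAR 2.6.1d, Cufflinks and Cuffdiff, with mm10. For each gene the authors deposited an FPKM per genotype, a log2 fold change (PTBP1_KO relative to WT), a p-value and a q-value, per the file headers. The 5 splicing tables hold inclusion and skipping read counts per library in comma-joined cells, form lengths, a p-value, an FDR and an inclusion level difference (a score from -1 to 1), all deposited by the authors per the file headers, which name no genotype for either set.

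From these, inclusion was recomputed per library as reads over form length; over 365052 values the largest gap to the deposited level was 0.0005. No test of the sets and no model was run, since libraries without a named genotype are not replicates of a group; the logistic model planned for columns tied to samples was therefore not fitted. A pseudocount of 1 was added to FPKM. Members, lists and tests were chosen with earlier results of these data known. The preset rule named with values the members with a q below 0.05 (there were 0), the 4 largest rises and falls by log2 fold change with at least 5 FPKM, and those described for splicing; its events were all called ones, those with an FDR below 0.05 but not called (1 per gene), and 1 decay exon per preset gene. Outside that rule, and chosen after their values were seen, are the FPKM of Srsf1, Srsf2, Srsf9, Srsf12, Hnrnpf and Pcbp1, the further Hnrnpa1 events, the retained introns, the coding isoform exons, the 64 nt exon of Srsf11 and the exons of Clk4, Rbm39 and Rnps1. The decay rule as first written picked exons that protein-coding transcripts also hold in 18 of 19 genes, so it was narrowed, after the annotation was seen, to exons in no protein-coding transcript. All 36 gene identifiers matched GENCODE M21, the source of exons and sequences. The 4 further lists were SR protein kinases, phosphatases and import, SR-related and exon junction proteins, the early spliceosome and nonsense-mediated decay. Some sequences and splicing events are not reported here. The analysis used scipy 1.17.1, pandas 2.3.3, numpy 2.4.6 and matplotlib 3.10.9 under Python 3.11.15. The inclusion calculation was tested on simulated data.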

Additional observations from a re-analysis of the deposited data

How the results depend on the processing

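Of the alternatives to the rule for calling a member splicing event, a minimum difference of 0.05 gave 5 called events, a minimum of 0.2 gave 1, and no minimum gave 9, in place of 3. A mean of 10 reads, 20 reads in every library, overlapping events counted once and an FDR below 0.01 each left 3, and a mean of 50 reads left 2. Counting events that share a skipping junction once, an alternative chosen after seeing the data, turned the 9 events with an FDR below 0.05 into 7. The count of genes called was 0 with a q below 0.05, a q below 0.1 or an unadjusted p below 0.05, and the median log2 ratio of the members ran from -0.01 to -0.03 when centred on all tested genes. Leaving out 1 library at a time, a value with no test, kept the sign of all 42 differences of the named events. For every named event but that of Hnrnpdl this was fixed beforehand, since sets that do not overlap cannot change sign in this way. The differences ranged from 12.7 to 18.4 points for Hnrnpa2b1, from -12.2 to -9.21 for exon 8 and from -8.96 to -5.91 for exon 7 of Hnrnpa1, from 26.6 to 33.5 for Hnrnph1, from -7.19 to -4.12 for Syncrip, from -2.75 to -1.83 for Hnrnpa3 and from 1.72 to 3.83 for Hnrnpdl. No paired analysis was possible because the columns of the tables carry no replicate numbers and are not tied to samples. Among the events given with a value in every library, depth limits the Hnrnph1 exon (34.2 reads per library) and the 64 nt exon of Srsf11 (50.8) the most, and the gene table has no depth or spread.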

Other observations

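The partners of these proteins, 53 genes in 4 lists, were measured in the same way. None had a q below 0.05 in the authors' deposited table, and 1 had an unadjusted p below 0.05: Rnps1, an SR-related component of the exon junction complex, was listed at 55.9 FPKM in WT against 71.9 in PTBP1_KO, with an unadjusted p of 0.0145 and an adjusted p of 0.636 from Cuffdiff. Of their 476 splicing events 7 were called, in 4 genes, or 1.47%, beside 1.56% of all events, and 20 had an FDR below 0.05. By list, 2 of 117 events were called among kinases, phosphatases and import factors of SR proteins, 3 of 209 among SR-related and exon junction proteins, 0 of 85 in the early spliceosome and 2 of 65 in nonsense-mediated decay.

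Clk4, a kinase that phosphorylates SR proteins, had 32.3, 33.8 and 40.6% in the first set and 20.8, 19.4 and 15.6% in the second for a 67 nt exon, a difference of 0.170 with an FDR of 1.86e-05 in the authors' deposited table. That event had 138 reads per library. Another skipped exon event of the same exon, with 208 reads, had 14.2, 17.5 and 17.8% and then 10.5, 5.96 and 4.97%. Its difference was 0.093, and it was not called. Rbm39, an SR-related splicing coactivator, had 91.3, 95.8 and 98.4% and then 79.6, 79.7 and 87.3% for a 73 nt exon, a difference of 0.130 with an FDR of 6.80e-06. Rnps1 had 62.3, 63.0 and 57.9% and then 47.0, 51.8 and 50.2% for a 181 nt exon, a difference of 0.114 with an FDR of 0.00117. In these 3 exons the sets did not overlap, and the first set was the higher one.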
